A study of Mus musculus with 23 samples.

Results

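The 29 genes described here are made in red cell precursors, in megakaryocytes and platelets, or in both, and were chosen by symbol from the 41388 gene start windows counted in the series. All 29 were found, each with 1 window of 3 kb in the spleen table and in the heart table. Of these, 21 are erythroid genes: transcription and nuclear factors, the receptors for erythropoietin and transferrin, 4 adult globins, and proteins of the red cell membrane and surface. The other 8 are platelet genes, coding for granule chemokines and surface receptors. Methylated DNA was captured from the spleen and from the heart (left ventricle) of male, individually housed C57Bl/6 mice with MethylMiner, a kit in which a methyl-CpG binding protein retains methylated fragments, and the captured DNA was sequenced. Spleen had 4 libraries on high fibre (a diet high in resistant starch), 4 on acetate (100 mM magnesium acetate in the drinking water) and 4 on the control diet, which lacked resistant starch. Heart had 4 libraries on high fibre, 3 on acetate and 4 on the control diet. All groups, controls included, were on their diet for 3 weeks before a minipump was implanted and until the end. What the pump delivered and how old the mice were is not given in the sources used here, nor whether the libraries of a group are from different mice. The p-values then reflect only how these libraries vary, and that variation may be technical. Heart and spleen libraries carry matching numbers in their titles, and whether such a pair is from 1 mouse is not stated. The main tissue tests treat all libraries as independent.

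Red cells and platelets descend from shared progenitors in the bone marrow, and in mice also in the red pulp of the spleen, whereas heart muscle makes neither. KLF1, GATA1, TAL1 and NFE2 bind regulatory DNA of globin, membrane and platelet genes and switch them on during maturation. Methylation of CpG-rich start regions usually accompanies silence of the gene, and many genes of single blood lineages have start regions with few CpGs, where methylation varies between cell types. RNA was not measured in these samples, and both tissues are mixtures of cells in which a change in methylation and a change in cell proportions cannot be told apart.

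Library totals lay between 4.36 and 9.87 M reads (M, mega) in spleen and between 4.12 and 8.60 M in heart, with a median of 13 to 29 reads per window in spleen and 26 to 70 in heart. A single window, the predicted gene Gm10800, held 48.2 to 61.2% of the reads of the spleen libraries and 17.3 to 50.05% of those of the heart libraries. The acetate heart library of replicate 1 stood apart from the other 2 of its group, with a median of 26 reads per window and 17.1% of windows at 0 reads. The count of calls between the tissues on acetate, and the calls for acetate against control in heart, are also given without it. Other acetate values include it, apart from ranges with each library left out. Capture was checked at marker genes of other cells. On the control diet the summed level of 9 cardiomyocyte genes was 235.5 to 319.9 CPM (counts per M of scaled library size) in spleen, against 116.8 to 144.0 CPM in heart, and that of 8 B cell genes was 59.7 to 74.0 CPM in spleen, against 98.99 to 121.9 CPM in heart. No window of either list was at 0 in all libraries. The tissue that uses these genes had the lower sum in both lists, although 2 of the 9 cardiomyocyte genes were called lower in spleen. Sums rest mostly on windows with many reads. When all windows were ranked by abundance, 81.8% of those in the highest of 10 bins were called higher in spleen on this diet. Whether the lists depart from windows of like abundance was not tested. The sums of 9 T cell genes, at 204 to 250.2 CPM in spleen and 180 to 207.4 CPM in heart, and of myeloid genes, at 100.2 to 122.8 CPM in spleen and 112.8 to 135.3 CPM in heart, overlapped, and that of 6 endothelial genes was 105.2 to 115.3 CPM in spleen, against 75.47 to 87.33 CPM in heart.

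The sequences just upstream of the start are shown for the genes on which the tissue comparison turns and for the globins, because the capture acts on methylated CpG and these stretches differ widely in CpG. RefSeq promoters of build GRCm38.p6 were matched by symbol for 25 of the 29 genes, not for Nfe2, Slc4a1, Ank1 and Itgb3. Each line gives the 250 bases before the annotated start, 5′ to 3′ on the strand of the gene, with CG in capitals. Tal1 lies on the plus strand, with promoters at chr4:115056176-115056425 and chr4:115057561-115057810. Epor is on the minus strand (chr9:21963577-21963826), as are Hemgn (chr4:46404184-46404433), Kel (chr6:41704326-41704575) and Hbb-bt (chr7:103813924-103814173). Tfrc (chr16:32608646-32608895), Hba-a2 (chr11:32296242-32296491) and Hba-a1 (chr11:32283422-32283671) are on the plus strand.
Tal1 promoter 1: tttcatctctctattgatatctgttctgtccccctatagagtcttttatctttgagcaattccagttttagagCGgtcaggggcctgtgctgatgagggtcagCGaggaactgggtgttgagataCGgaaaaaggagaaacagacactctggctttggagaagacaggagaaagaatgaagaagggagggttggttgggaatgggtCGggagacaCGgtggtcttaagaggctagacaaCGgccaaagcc
Tal1 promoter 2: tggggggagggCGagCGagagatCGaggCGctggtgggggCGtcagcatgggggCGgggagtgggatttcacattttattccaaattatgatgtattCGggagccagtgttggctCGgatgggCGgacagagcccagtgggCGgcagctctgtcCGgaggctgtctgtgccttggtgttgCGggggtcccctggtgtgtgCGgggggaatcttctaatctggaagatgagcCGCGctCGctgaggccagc
Epor: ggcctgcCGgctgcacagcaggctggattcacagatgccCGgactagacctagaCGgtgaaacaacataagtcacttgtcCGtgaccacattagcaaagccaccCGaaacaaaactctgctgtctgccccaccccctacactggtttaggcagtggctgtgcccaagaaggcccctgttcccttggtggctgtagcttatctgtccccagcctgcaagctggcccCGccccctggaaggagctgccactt
Hemgn: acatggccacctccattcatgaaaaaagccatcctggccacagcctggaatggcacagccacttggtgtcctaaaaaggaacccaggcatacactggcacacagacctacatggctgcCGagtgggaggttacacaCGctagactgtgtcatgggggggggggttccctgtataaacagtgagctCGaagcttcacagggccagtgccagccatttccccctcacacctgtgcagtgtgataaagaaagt
Tfrc: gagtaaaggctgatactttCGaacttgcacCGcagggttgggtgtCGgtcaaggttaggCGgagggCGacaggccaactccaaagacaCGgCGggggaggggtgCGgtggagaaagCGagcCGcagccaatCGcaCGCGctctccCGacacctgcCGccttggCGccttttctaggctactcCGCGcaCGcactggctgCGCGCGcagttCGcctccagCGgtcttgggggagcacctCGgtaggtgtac
Kel: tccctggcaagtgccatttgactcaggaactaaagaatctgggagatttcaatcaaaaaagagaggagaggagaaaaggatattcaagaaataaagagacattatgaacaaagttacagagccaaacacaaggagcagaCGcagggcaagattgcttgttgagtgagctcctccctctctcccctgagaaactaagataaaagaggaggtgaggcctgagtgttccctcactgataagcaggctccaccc
Hba-a2: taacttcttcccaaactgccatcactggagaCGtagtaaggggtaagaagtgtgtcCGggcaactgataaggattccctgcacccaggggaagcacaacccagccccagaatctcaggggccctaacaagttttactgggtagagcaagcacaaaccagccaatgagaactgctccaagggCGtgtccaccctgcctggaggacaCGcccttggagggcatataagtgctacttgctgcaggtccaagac
Hba-a1: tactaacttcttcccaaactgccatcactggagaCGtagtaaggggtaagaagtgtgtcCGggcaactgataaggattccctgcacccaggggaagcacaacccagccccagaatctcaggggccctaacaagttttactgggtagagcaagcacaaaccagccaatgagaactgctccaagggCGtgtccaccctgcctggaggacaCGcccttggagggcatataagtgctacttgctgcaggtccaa
Hbb-bt: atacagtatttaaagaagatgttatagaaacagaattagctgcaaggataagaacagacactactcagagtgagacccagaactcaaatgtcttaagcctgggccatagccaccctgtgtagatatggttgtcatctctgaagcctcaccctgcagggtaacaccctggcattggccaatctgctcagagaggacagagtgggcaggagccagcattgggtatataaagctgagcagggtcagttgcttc

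The Tfrc stretch shown held 25 CpGs, the second Tal1 promoter 16 and the first 6, Epor 6, Hba-a2 and Hba-a1 4 each, Hemgn 3, Kel 1 and Hbb-bt 0. Tfrc has a second promoter, chr16:32608872-32609121, which held 23 CpGs and is not shown. The median over the 27 promoters of the 25 genes was 3 CpGs, against 6 over all 32851 RefSeq promoters. Only Tal1, Tfrc, Sptb and Tspan33 reached 10 CpGs in a promoter, a count that 37.8% of all promoters reached. The upstream stretches of Hba-a2 and Hba-a1, whose starts lie 12.8 kb apart on chromosome 11, were identical in 247 of 253 aligned columns (97.6%). The other 6 columns were gaps at the ends, so no aligned base differed. Those of Hbb-bt and Hbb-bs on chromosome 7 matched in 69.3%. How reads that fit both alpha globin genes were counted is not stated, so the split between Hba-a1 and Hba-a2 is uncertain. The letters GATAA, the core of the motif GATA factors bind, were present on either strand of these 250 bases in 16 of the 25 genes, against 22.6% of all promoters, and CCACCC, the core bound by KLF1, in 12 of the 25, against 28.1%. A match of letters is a description and not a bound site.

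In spleen the start windows of Hemgn, Tfrc, Kel and Itgb3 held fewer captured reads than in heart, on each of the 3 diets, and those of Tal1, Epor and Nfe2 held more, except that with library totals as scaling these 3 turned below 0 on high fibre. These 7 are among the 11 genes whose 12 spleen libraries and 11 heart libraries did not overlap. Spleen lay wholly above heart for 6 of 29 genes, Tal1, Nfe2, Epor, Ank1, Ermap and Itga2b, against 18.2% of all 33982 windows tested, and wholly below for 5, Hemgn, Tfrc, Hbb-bt, Kel and Itgb3, against 14.4%. Counts of genes in each direction were therefore close to those of windows in general, and the description below is of single genes.

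**Figure D1:**
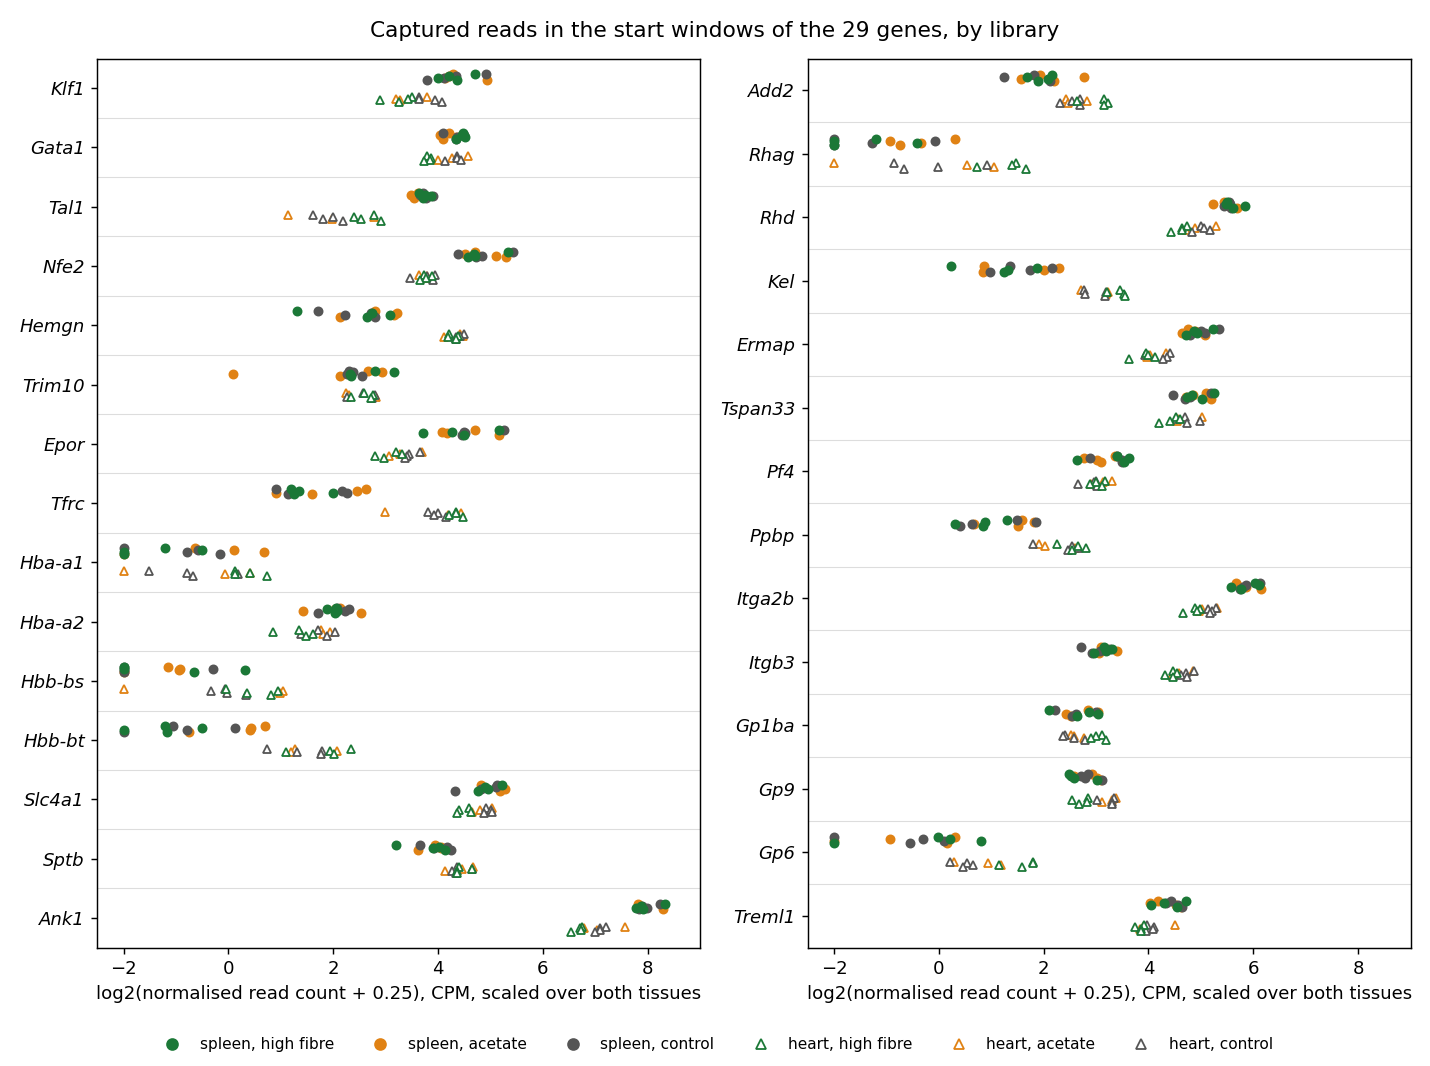
Normalised read count in the start window of each of the 29 genes, 1 symbol per library, as log2(CPM + 0.25) after scaling over both tissues, with spleen as filled circles above heart as open triangles and diets in colour; values at -2 are libraries with 0 reads. Tal1 lay at 10.9 to 14.7 CPM in spleen and 1.96 to 7.28 CPM in heart, and Hemgn at 2.22 to 9.02 CPM in spleen and 16.96 to 22.4 CPM in heart.

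On the control diet, edgeR's quasi-likelihood test with Benjamini-Hochberg adjustment at 5% called 19 of the 29 genes, 10 higher and 9 lower in spleen than in heart. Of all windows tested, 72.7% were called, 32.7% higher and 40% lower. The median log2 fold change (spleen over heart) was -0.08 over the 29 genes and -0.19 over all windows. Levels below are CPM after scaling over both tissues, and log2 fold changes carry their standard error.

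Among the transcription factors, Tal1, needed for the formation of all blood cells, had 12.8, 12.4, 14.7 and 13.3 CPM in spleen, against 2.82, 3.72, 3.24 and 4.29 CPM in heart. Every spleen library was above every heart library, and the log2 fold change was 1.84 ± 0.20 (edgeR adjusted p = 9.95e-10). Nfe2, a subunit of a factor that acts on globin and platelet genes, had 42.9, 20.6, 28.2 and 26.2 CPM in spleen, against 15.1, 13.6, 10.8 and 14.6 CPM in heart (log2 1.08 ± 0.18, adjusted p = 3.48e-06). The groups did not overlap, and the first spleen library stood highest. Klf1, the erythroid Krüppel-like factor, was also called higher in spleen (log2 0.51 ± 0.19, adjusted p = 0.0182), with ranges that met at 13.5 to 30.1 CPM in spleen and 12.1 to 16.7 CPM in heart. Gata1, the X-linked master factor of both lineages, had a log2 fold change of 0.01 ± 0.13 and was not called, though 2 other scalings called it lower, as given below.

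Hemgn codes for hemogen, a nuclear protein of blood progenitors. It had 3.03, 6.33, 4.40 and 6.66 CPM in spleen, against 22.4, 21.001, 20.03 and 20.1 CPM in heart. The highest spleen library was below the lowest heart library, and the log2 fold change was -1.95 ± 0.21 (edgeR adjusted p = 1e-09). Trim10, a RING protein of late erythroid cells whose start lies 2364 bases from that of Trim15, was at -0.24 ± 0.26 and not called.

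The receptors moved apart. Epor, the receptor through which erythropoietin keeps red cell precursors alive, had 38.0, 22.2, 22.5 and 21.7 CPM in spleen, against 12.3, 10.6, 10.3 and 10.1 CPM in heart (log2 1.23 ± 0.22, edgeR adjusted p = 9.46e-06). Tfrc, the transferrin receptor by which cells import iron, had 1.63, 4.22, 4.56 and 1.93 CPM in spleen, against 13.7, 15.6, 14.9 and 17.5 CPM in heart. Neither gene's groups overlapped. The log2 fold change of Tfrc, at -2.14 ± 0.26 (adjusted p = 1.19e-08), was the most negative of the 29.

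The globin windows held few reads. Hbb-bt, an adult beta chain, had 0.233, 0.845, 0.326 and 0 CPM in spleen, 9 reads in all, against 1.41, 3.17, 2.21 and 3.156 CPM in heart, 83 reads in all, and was called lower in spleen (log2 -2.01 ± 0.44, edgeR adjusted p = 0.000148). The Hbb-bt window passed the filter on low counts through heart libraries alone, and in its bin of abundance 73.5% of all windows were called lower on this diet. Its partner Hbb-bs had 4 reads over the 4 spleen libraries, all in replicate 2, and 25 over the 4 heart libraries, and was not called (adjusted p = 0.0505). The alpha chain window Hba-a2 had 3.96, 4.65, 4.40 and 3.01 CPM in spleen, against 3.02, 3.83, 2.36 and 3.41 CPM in heart (log2 0.32 ± 0.25, not called). These ranges overlapped. Hba-a1 had 8 reads in spleen and 13 in heart, and in this fit no difference was detected at this depth.

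Of the 4 proteins of the membrane skeleton and its anchor, Ank1 (ankyrin, which ties spectrin to the membrane) was called higher in spleen, and Sptb (beta spectrin) and Add2 (beta adducin) were called lower. The Ank1 window was the deepest of the 29, with 299, 237, 252 and 227 CPM in spleen, against 148, 136, 135 and 127 CPM in heart (log2 0.89 ± 0.15, edgeR adjusted p = 3.46e-06). RefSeq lists 29 transcripts for Ank1 and 1 for Klf1, and how transcripts share a window is not stated, so levels are compared here between libraries and not between genes. Sptb stood at log2 -0.38 ± 0.16 (adjusted p = 0.031) and Add2 at -0.73 ± 0.23 (adjusted p = 0.00578). Slc4a1, the anion exchanger band 3, was at -0.08 ± 0.15 and not called.

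On the red cell surface, Kel (the Kell blood group metalloprotease) was lower in spleen, at 2.33, 4.22, 3.10 and 1.72 CPM, against 6.55, 8.86, 6.63 and 8.71 CPM in heart (log2 -1.29 ± 0.26, edgeR adjusted p = 4.01e-05). The spleen and heart libraries did not overlap. Ermap, an immunoglobulin-like protein of erythroid cells, was higher in spleen (log2 0.81 ± 0.15, adjusted p = 9.72e-06), as was Rhd, a Rhesus protein (log2 0.50 ± 0.13, adjusted p = 0.000939). Rhag, the Rhesus-associated glycoprotein, had 6 reads in spleen and 26 in heart and was not called. Tspan33, a tetraspanin of erythroid and lymphoid cells, was at 0.06 ± 0.15 and not called.

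The platelet genes split in the same manner. Itgb3, the beta chain of the fibrinogen receptor, had 6.29, 9.43, 8.15 and 7.31 CPM in spleen, against 29.1, 26.03, 24.4 and 26.5 CPM in heart. With a log2 fold change of -1.71 ± 0.14 (edgeR adjusted p = 4.99e-12) it had the smallest p of the 29, and its groups stood far apart. The window of its alpha chain partner Itga2b went the other way, at 69.4, 57.6, 55.7 and 53.3 CPM in spleen, against 38.6, 34.8, 37.0 and 35.7 CPM in heart (log2 0.69 ± 0.13, adjusted p = 3.24e-05). These groups did not overlap either.

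Pf4 and Ppbp, chemokines stored in platelet granules, have starts 3.9 kb apart on chromosome 5. Ppbp was lower in spleen (log2 -1.12 ± 0.29, edgeR adjusted p = 0.00102) and Pf4 was called higher (0.40 ± 0.18, adjusted p = 0.0459). Treml1, a receptor of platelet alpha granules, was higher (0.46 ± 0.15, adjusted p = 0.00683). Gp9, a subunit of the von Willebrand factor receptor, was lower (-0.38 ± 0.17, adjusted p = 0.0403), while its partner Gp1ba was at 0.11 ± 0.20 and not called. Gp6, the collagen receptor, had 11 reads in spleen and 38 in heart and was not called.

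Direction followed abundance across all windows. When the windows tested were ranked by mean CPM and split into 10 bins of equal size, the median log2 fold change of spleen over heart on the control diet was -1.15 in the lowest bin and -1.50 in the third, and was 0.78 in the highest. Of the 19 genes called, 13 had the sign of their bin's median, among them Hbb-bt, Kel and Ppbp below 0 and Ank1, Itga2b and Rhd above 0. Nfe2 (1.08) and Epor (1.23) were also among these 13. The medians of their bins were 0.67 and 0.47, and 71.3 and 60% of the windows there were called higher. The other 6 had the opposite sign. Tal1 exceeded the median of its bin (-0.08) by 1.92, and Hemgn, Tfrc and Itgb3 were below theirs (0.22, 0.22 and 0.47) by a log2 difference of -2.17, -2.36 and -2.18. Sptb and Pf4 deviated less, by -0.85 and 0.48. As a description of CpG content, without a test, Spearman's rho between the CpGs in the richest promoter of a gene, counted to 50 bases past the start, and the log2 fold change was 0.407 across 25 of the genes and 0.208 across 15617 windows. The order was not steady among the genes: the median log2 fold change was -1.05 for the 6 genes with 0 to 2 CpGs, 0.11 for the 11 with 3 to 5 and 0.69 for the 3 with 6 to 10, but -0.16 for the 4 with 21 or more, among them Tfrc. All these points come from the same libraries and differ in depth.

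**Figure D2:**
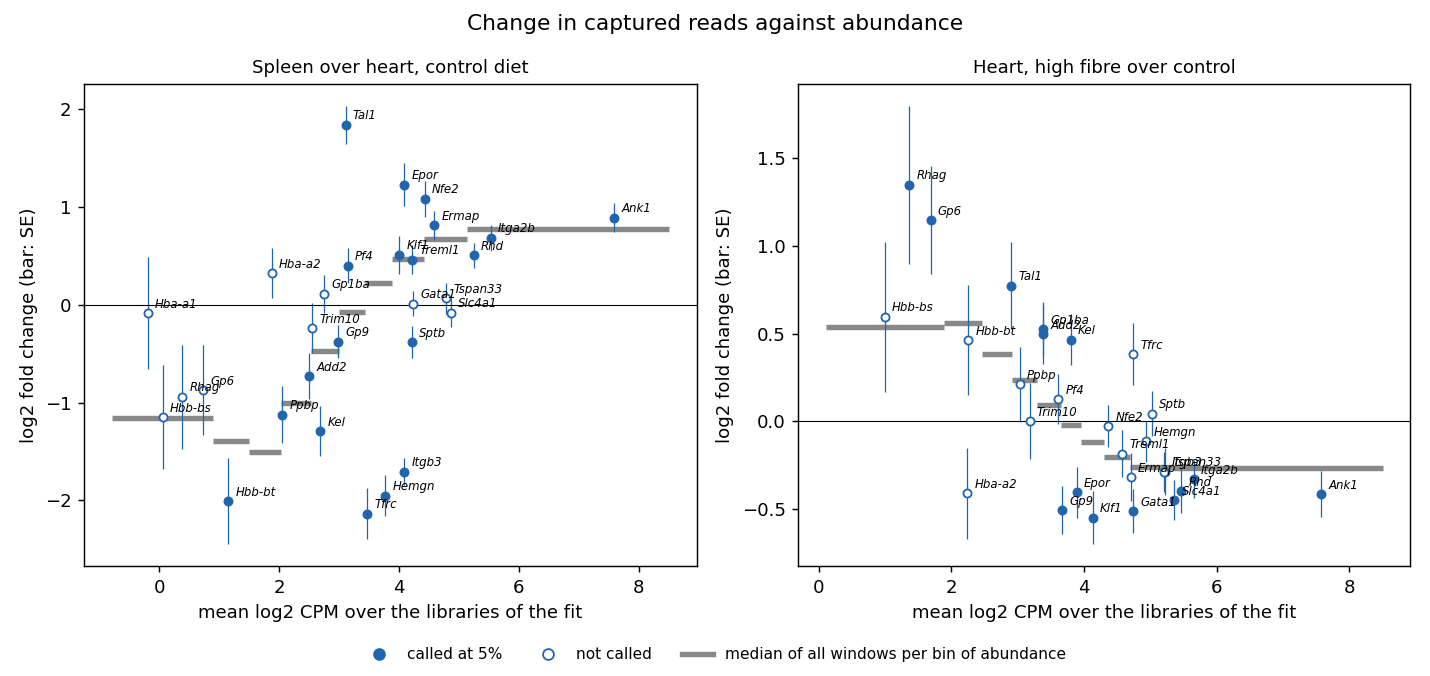
Log2 fold change with its standard error against mean log2 CPM for the members tested, with grey bars for the median of all windows in each of 10 bins of abundance (the last bar is drawn to 8.5); left, spleen over heart on the control diet, right, high fibre over control in heart. On the left Tal1 (1.84) and Tfrc (-2.14), Hemgn (-1.95) and Itgb3 (-1.71) lie far from the bars, and on the right all 14 called genes except Kel have the sign of their bar.

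Several calls depended on the scaling. Library totals, of which Gm10800 makes up a large and variable share, moved the median of all windows on the control diet to -1.03, and RLE factors moved it to -0.30, against -0.19 with the TMM factors used here and -0.04 with cyclic loess. In place of 10 higher and 9 lower, library totals gave 1 higher and 20 lower, loess 5 and 8, and DESeq2 8 and 11. For these counts, and for those of other settings below, the share of all windows called in the same setting is not given. They do not show whether the genes moved more than windows in general. The 7 settings were TMM, RLE, library totals, cyclic loess, DESeq2, no filter, and a block. The block was the number in the library title, which pairs heart with spleen libraries. Over these 7 settings, 4 genes were called lower in spleen in each setting on each diet, namely Hemgn, Tfrc, Kel and Itgb3. On the control diet their log2 fold changes ran from -2.79 to -1.95 for Hemgn, -2.97 to -2.06 for Tfrc, -2.12 to -0.63 for Kel and -2.57 to -1.71 for Itgb3. Tal1 was called higher in all 7 settings on the control diet, from 0.96 to 2.08, and in 6 of 7 on high fibre and on acetate, with library totals the exception. Epor was called higher in 6 of 7 settings on each diet, again except for library totals, where it stood at -0.11 on high fibre, 0.36 on acetate and 0.33 on the control diet.

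Nfe2 was called higher with loess on the control diet (0.54) and on acetate (0.71) but not on high fibre (0.35), and Klf1 on high fibre (0.52) and acetate (0.67) but not on the control diet (0.07). With library totals Tal1 on the control diet was the 1 gene still called higher on any diet. Of the genes called higher with TMM, totals turned 7 of 10 below 0 on the control diet, 13 of 13 on high fibre and 4 of 8 on acetate, and called 3, 10 and 1 of them lower. Ank1, Itga2b and Rhd on the control diet were at -0.03, -0.03 and -0.16 with loess and at -0.02, -0.22 and -0.38 with library totals, the last of these called lower. Ermap was at 0.25 with loess and -0.08 with totals, uncalled in both. Pf4 was called higher on the control diet in 1 of the 7 settings and called lower with totals (-0.49), and Treml1 was at -0.03 with loess and called lower with totals (-0.43). On high fibre, loess called Slc4a1 (-0.42) and Tspan33 (-0.31) lower, both called higher with TMM. Hbb-bt stayed below 0 in each setting but was not called with loess (-0.96). Some genes not called with TMM on the control diet were called there with other scalings. Gata1, Slc4a1 and Tspan33 were called lower with loess (-0.49, -0.72 and -0.55) and with totals (-0.86, -0.97 and -0.84). Hba-a2 was called higher with loess on the control diet (1.45), high fibre (2.12) and acetate (1.20). Hba-a1, with few reads, was called higher with loess on the control diet (2.07).

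**Figure D3:**
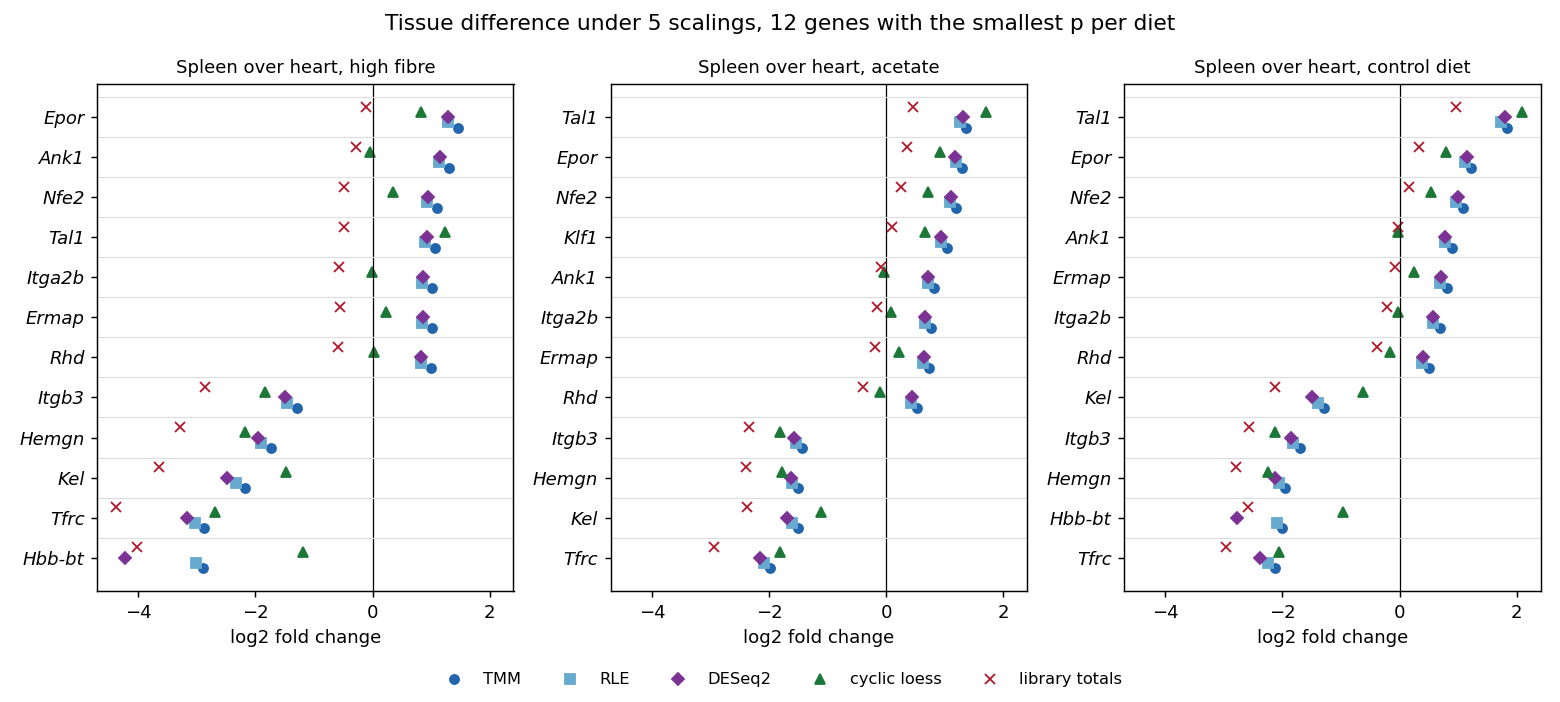
Log2 fold change of spleen over heart for the 12 genes with the smallest p on each diet, under 5 ways to scale the counts. Points of Hemgn, Tfrc, Kel and Itgb3 stay left of 0 in every panel, Ank1 and Itga2b reach 0 or below with loess or library totals except Itga2b with loess on acetate (0.09), and on high fibre the library totals also put Tal1 at -0.48 and Nfe2 at -0.48.

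On high fibre 25 of the 29 genes were called, 13 higher and 12 lower in spleen, against 80.7% of all windows (35.6% higher, 45.1% lower), and on acetate 17 were called, 8 higher and 9 lower, against 63% of all windows (29% higher, 34% lower). Library totals gave 0 higher and 26 lower on high fibre, loess 4 and 7 there, and totals 0 and 20 on acetate. Without the acetate heart library of replicate 1 the count on acetate was 18. In the TMM fit 8 genes were called higher on all 3 diets (Klf1, Tal1, Nfe2, Epor, Ank1, Rhd, Ermap and Itga2b) and 7 lower (Hemgn, Tfrc, Hbb-bt, Sptb, Kel, Ppbp and Itgb3). These comparisons use separate libraries of both tissues. Tfrc had 2.03, 2.28, 3.72 and 2.12 CPM in high fibre spleen, against 19.9, 20.1, 18.3 and 21.9 CPM in high fibre heart (log2 -2.87 ± 0.28, edgeR adjusted p = 3.62e-11). On acetate it had 5.92, 5.195, 1.62 and 2.76 CPM in spleen, against 7.65, 21.5 and 18.1 CPM in heart (log2 -1.98 ± 0.28, adjusted p = 3.94e-07). The low heart value of 7.65 CPM was that of the replicate 1 library.

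Hemgn was lower in spleen by a log2 fold change of -1.74 ± 0.21 on high fibre and -1.50 ± 0.22 on acetate, Itgb3 by -1.29 ± 0.14 and -1.43 ± 0.15, and Kel by -2.18 ± 0.27 and -1.51 ± 0.29. Tal1 was higher by 1.07 ± 0.18 on high fibre and 1.37 ± 0.22 on acetate, and Epor by 1.45 ± 0.23 and 1.29 ± 0.25. Genes with 3 reads in a group are given as reads alone. On high fibre, Rhag had 3 reads in spleen and 87 in heart, and Hba-a1 3 in spleen and 40 in heart, both called lower in spleen. On acetate, Hbb-bs had 3 reads in spleen and 32 in heart and was called lower. Hba-a1, Hbb-bs, Hbb-bt, Rhag and Gp6 did not pass the filter on low counts in spleen alone. They were tested here only through heart libraries, where they were higher, and calls of lower in spleen partly rest on that selection. In the lowest bin of abundance 83% of all windows were called lower on high fibre and 2.18% higher. Whether a diet changed the tissue difference was tested directly as an interaction, and no gene of the 29 was called for high fibre, against 0.0559% of all windows, or for acetate, against 0%. For high fibre 8 of the 29 (27.6%) had an unadjusted p under 0.05, against 16.4% of all windows, with the smallest at Gata1 (log2 0.63 ± 0.18, edgeR adjusted p = 0.151) and Tal1 (-0.77 ± 0.26, adjusted p = 0.188). For acetate no gene of the 29 had an unadjusted p under 0.05, against 4.57% of all windows, and DESeq2 called 0 of the 29 in both.

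Within the heart, high fibre against the control diet gave 14 calls among the 28 genes that passed the filter on low counts, 6 higher and 8 lower, against 26.2% of all windows (12.6% higher, 13.6% lower). Hba-a1 did not pass. The higher genes were Rhag, Gp6, Tal1, Gp1ba, Add2 and Kel, and the lower ones Klf1, Gata1, Gp9, Slc4a1, Ank1, Epor, Rhd and Itga2b. All 4 high fibre libraries lay above all 4 control libraries for 5 genes, against 16.6% of windows, and below for 10, against 17.1%. Levels in this comparison were scaled within the heart and are higher than those given above for the same libraries.

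Gata1 had 20.6, 21.7, 21.5 and 19.6 CPM in high fibre hearts, 35.8, 28.8 and 23.95 CPM in acetate hearts and 30.6, 30.6, 32.4 and 25.97 CPM in control hearts. The high fibre libraries lay below all others, with a log2 fold change over control of -0.51 ± 0.13 (edgeR adjusted p = 0.00994). Klf1 had 16.7, 15.9, 10.8 and 14.1 CPM in high fibre hearts and 18.3, 18.3, 22.9 and 25.2 CPM in control hearts (log2 -0.55 ± 0.15, adjusted p = 0.0157). Gp9 had 10.6, 8.51, 10.4 and 9.32 CPM in high fibre hearts and 14.9, 11.9, 14.4 and 14.5 CPM in control hearts (log2 -0.50 ± 0.14, adjusted p = 0.0145). In neither gene did the groups overlap. Slc4a1, Ank1, Epor, Rhd and Itga2b were lower by smaller amounts, at -0.45 ± 0.11, -0.41 ± 0.13, -0.40 ± 0.15, -0.40 ± 0.12 and -0.33 ± 0.11.

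Gp6 had the smallest p among the higher genes, with 4.91, 4.89, 3.00 and 4.16 CPM in high fibre hearts and 1.37, 1.82, 2.00 and 1.72 CPM in control hearts (log2 1.15 ± 0.31, edgeR adjusted p = 0.0131). Tal1, whose window was lower in heart than in spleen, had 10.01, 7.61, 8.42 and 11.04 CPM in high fibre hearts and 4.26, 5.62, 4.89 and 6.49 CPM in control hearts (log2 0.77 ± 0.25, adjusted p = 0.0276). Both groups of values stood apart. Kel had 16.2, 13.8, 17.1 and 17.4 CPM in high fibre hearts and 9.89, 13.4, 9.9998 and 13.2 CPM in control hearts (log2 0.46 ± 0.14, adjusted p = 0.0247). Rhag, with 87 reads over 4 high fibre libraries and 26 over 4 control libraries, was at 1.35 ± 0.45 with overlapping groups, and Gp1ba and Add2 were at 0.52 ± 0.15 and 0.50 ± 0.17. Gp6, with 9 to 11 reads per control library, and Rhag passed the filter on low counts only because of the high fibre libraries, where they were high. Their calls partly rest on that selection.

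**Figure D4:**
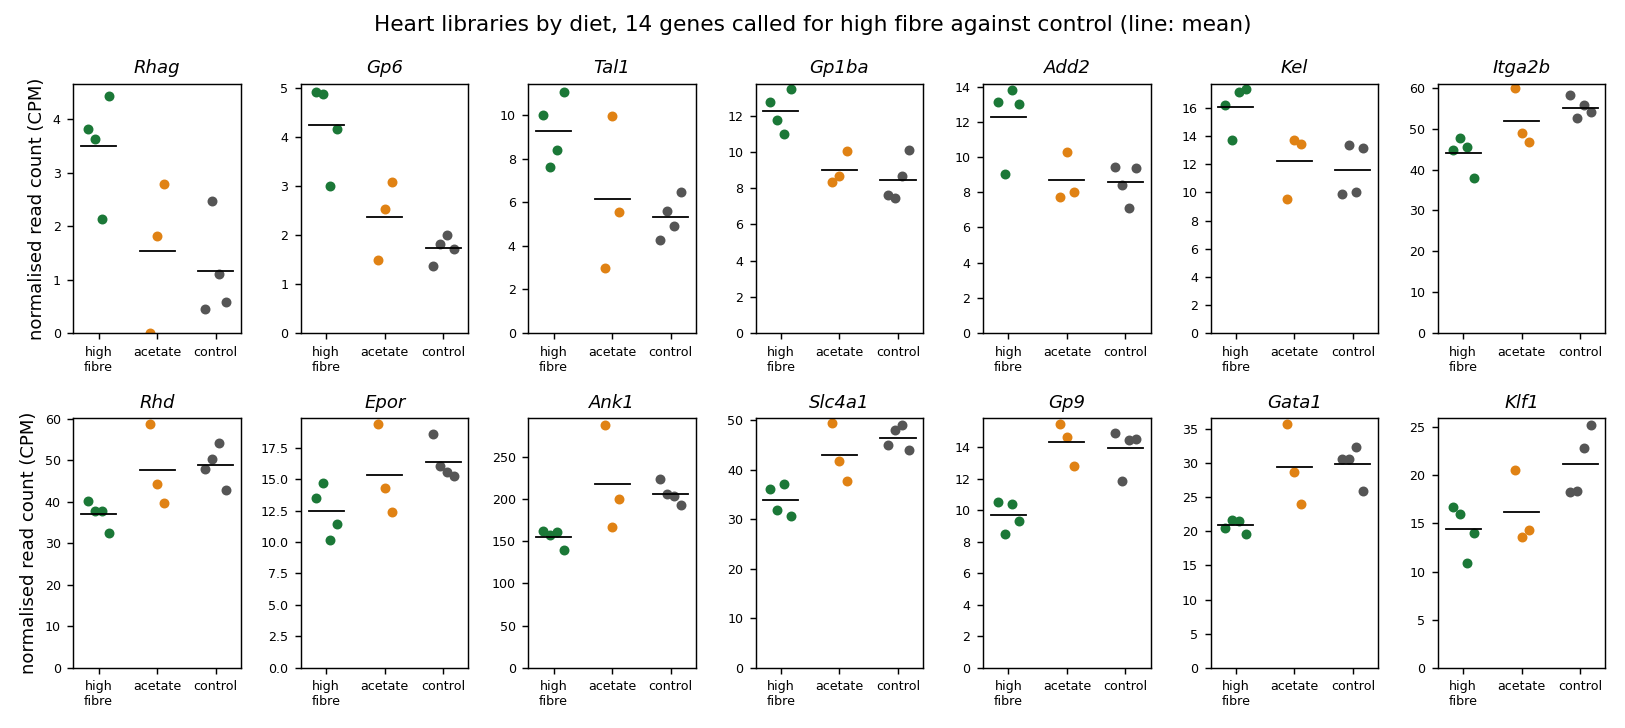
Normalised read count (CPM, scaled within the heart) of each heart library by diet for the 14 genes called for high fibre against control, with the group mean as a line, genes ordered from the highest to the lowest log2 fold change. High fibre hearts lay at 19.6 to 21.7 CPM for Gata1, against 25.97 to 32.4 CPM in control hearts, and the lower genes turned above 0 when library totals were used.

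These heart calls followed abundance and depended on the scaling. The median log2 fold change of all windows was 0.54 in the lowest bin of abundance and -0.27 in the highest, and 13 of the 14 called genes had the sign of their bin, Kel being the exception. Of the 28 genes 7 and 4 lay in the ninth and the highest bin, where 34.7 and 42.2% of all windows were called lower. With library totals, which moved the median of all windows to 0.69, 21 genes were called higher and 0 lower. With cyclic loess 3 were called, Kel (0.53) and Gp9 (-0.53) as before and Hba-a2 (-0.93) in addition, and with 1 surrogate variable added none was called. The count was also set by single libraries, falling to 3 when control replicate 1 was left out and to 6 when control replicate 3 was left out. Leaving out high fibre replicate 1, 3 or 4 gave 9, 7 or 2 calls. The share of all windows called in each of these fits is not given, so the counts do not set the genes apart from windows in general. The share of reads in the Gm10800 window moved with the diet in heart, at 17.3 to 21.3% on high fibre, 22.1 to 42.4% on acetate and 36.8 to 50.05% on the control diet, and its part in these calls was not tested.

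Marker genes of other cells moved in the same libraries. In the ninth and the highest bin of abundance 34.7 and 42.2% of all windows were called lower. Whether the marker lists depart from windows of like abundance was not tested. Of 6 myeloid genes tested 4 were called lower on high fibre and none higher, against 13.6% of all windows called lower, and the summed level of the list was 129.1 to 152.9 CPM in high fibre hearts, against 170.7 to 204.4 CPM in control hearts, with Cd68 at 0 reads in every library. Of 9 cardiomyocyte genes 4 were called lower, with sums of 145.3 to 160.9 CPM on high fibre, against 176.5 to 217.5 CPM on the control diet. Of 9 T cell genes 3 were called lower, with sums of 211.1 to 250.3 CPM on high fibre, against 272.3 to 313.2 CPM on the control diet. The other lists overlapped between the diets: of 8 B cell genes 1 was called higher and 2 lower, with sums of 147 to 157 CPM on high fibre, against 149.6 to 184.5 CPM on the control diet, and of 6 endothelial genes 1 was called lower, with sums of 98.66 to 116.6 CPM on high fibre, against 114 to 131.8 CPM on the control diet. The part of cell proportions in the calls of the 29 genes was not tested.

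The other diet comparisons gave no call among the 29 genes. For acetate against control in heart, edgeR and DESeq2 called 0% of all windows. An unadjusted p under 0.05 by edgeR was found for 840 windows (2.5%) and for 1 of the 28 genes tested (3.57%). The smallest p values belonged to Klf1 (log2 -0.41 ± 0.17) and Hbb-bs (0.65 ± 0.46). Without the acetate library of replicate 1, Klf1 was the 1 gene called (-0.57 ± 0.16, edgeR adjusted p = 0.03765). For high fibre against acetate in heart 1.38% of windows were called, and none of the 28 genes tested, of which 9 (32.1%) had an unadjusted p under 0.05, against 27.1% of all windows. Ank1 (log2 -0.49 ± 0.14, edgeR adjusted p = 0.0567) and Gp9 (-0.53 ± 0.15, adjusted p = 0.0569) were nearest to the threshold. Acetate replicate 1 lay highest for both, at 288 CPM for Ank1 and 15.5 CPM for Gp9.

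In spleen 24 of the 29 genes passed the filter on low counts, without Hba-a1, Hbb-bs, Hbb-bt, Rhag and Gp6. None was called on high fibre or acetate against control, or on high fibre against acetate, where 0% of windows were called in each, and no gene of the 24 had an unadjusted p under 0.05. Over all windows 502 (2.02%), 872 (3.51%) and 823 (3.31%) had an unadjusted p under 0.05 in these 3 comparisons by edgeR. Tspan33 had the smallest p against control on both diets. In each diet group 1 library, control replicate 1, high fibre replicate 1 or acetate replicate 4, stood apart from the rest, as given below. A p that misses the threshold does not show that the diets act alike.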

How the data were processed

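Captured DNA was counted in 23 libraries. The deposited values are raw read counts per 3 kb window at transcription start sites, in 1 table for spleen and 1 for heart, not normalized or pooled by the authors. Per the submitters' processing notes the build was GRCm38, and the tools named are featureCounts 1.5.1, BWA 0.7.10, edgeR 3.16.5 and bcl2fastq 2.19.1.403. How windows were centred and how duplicate or multiply aligned reads were counted is not given in the sources used here. There was no unenriched library, so counts give no absolute methylation level.

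Counts were tested with edgeR 4.0.16 in R 4.3.3 (quasi-likelihood, TMM, filterByExpr at a minimum count of 10, prior count 2, adjusted p at 0.05 over all windows), with all 6 groups in 1 fit for tissue comparisons and interactions and 3 groups per tissue for diets. Alternatives used DESeq2 1.42.0, limma 3.58.1 and sva 3.50.0. The test was tried on simulated data. Members and lists were chosen with earlier results of these data known. Values are named for all genes called in spleen against heart on the control diet, and in heart on high fibre against control. For spleen against heart on high fibre and on acetate they are given for some of the called genes. The scalings are drawn for the 12 genes with the smallest p on each diet. Where no gene was called, at most the 2 with the smallest p are named. Other members are given more briefly by role.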

Additional observations from a re-analysis of the deposited data

Results flagged for a closer look

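Of 145 sets of libraries checked (each gene in each group of 4), 8 held 1 library far from the other 3, where chance gives about 1 in 20, or 7.25. Levels here are CPM scaled within a tissue. Epor was at 24.5 CPM in spleen control replicate 1, with the others at most 15.6 CPM. Ank1 stood at 206.1 CPM in spleen high fibre replicate 1, with the others at 158.4 to 162.8 CPM. In spleen control replicate 4 Gp9 had 5.79 CPM, with the others at 4.43 to 4.53 CPM. Hbb-bs had 4 reads (0.394 CPM) in spleen control replicate 2 and 0 in the other 3 libraries.

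In heart, Sptb was high (37.9 CPM, others 30.7 to 31.7 CPM) and Add2 low (9.06 CPM, others 13.1 to 13.8 CPM) in the same library, high fibre replicate 2. Pf4 was low in control replicate 3 (9.11 CPM, others 11.4 to 11.8 CPM), and Gp9 was low in control replicate 2 (11.9 CPM, others 14.4 to 14.9 CPM).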

How the results depend on the processing

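Counts of called genes were recomputed for all 11 comparisons with RLE factors, library totals, cyclic loess, no filter, DESeq2, a block, the compared groups alone and each library left out, where these apply. The block was the title number where both tissues were compared, and the replicate number within 1 tissue. For spleen against heart the count stayed within 1.5 times of the reported one except on high fibre with loess (11). Leaving out a library gave 15 to 20 on the control diet, 23 to 27 on high fibre and 14 to 18 on acetate. These counts join both directions, and many directions changed with the scaling, as given below. All counts in this paragraph are without the share of all windows called in the same setting. For high fibre against control in heart it was 3 with loess, 0 with 1 surrogate variable and 2 to 19 with a library left out; for acetate against control 0 to 1; for high fibre against acetate 1 with library totals, 1 with no filter, 2 with DESeq2 and 0 to 5 with a library left out. The high fibre interaction gave 5 with library totals. With the block the counts were 17, 24 and 12 for spleen against heart on control, high fibre and acetate. Within heart they were 16 for high fibre against control and 2 for high fibre against acetate. The block changed no other count. Whether libraries of the same number share a mouse is not stated. Deviations from the group means of libraries with the same title number correlated above 0.1 in 4 of 11 pairs across tissues. For the same replicate number this held in 5 of 10 pairs in heart and 5 of 12 in spleen. Of 11 heart libraries, 2 correlated best with the spleen library of their own title number. These correlations cannot decide whether mice were shared.

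With library totals, genes called higher in spleen turned below 0, among them the following: on the control diet Ank1 (-0.023), Rhd (-0.38), Ermap (-0.078) and Itga2b (-0.22); on high fibre Tal1 (-0.48), Nfe2 (-0.48), Epor (-0.11), Ank1 (-0.28), Rhd (-0.60), Ermap (-0.56) and Itga2b (-0.57); and on acetate Ank1 (-0.086), Rhd (-0.39), Ermap (-0.18) and Itga2b (-0.16). Other genes called higher turned too: on the control diet Klf1 (-0.38), Pf4 (-0.49) and Treml1 (-0.43), and on high fibre Klf1 (-0.50), Gata1 (-0.94), Hba-a2 (-0.81), Slc4a1 (-1.12), Tspan33 (-1.04) and Treml1 (-0.98). With loess this held for Ank1 on the control diet (-0.028), high fibre (-0.040) and acetate (-0.032), for Rhd on the control diet (-0.16) and acetate (-0.097), and for Itga2b on the control diet (-0.027) and high fibre (-0.0014), for Treml1 on both (-0.026 and -0.12), and on high fibre for Gata1 (-0.061), Slc4a1 (-0.42) and Tspan33 (-0.31); Hba-a1, Hbb-bs and Gp6 on high fibre and Ppbp on acetate, called lower, turned above 0. In heart, library totals turned Klf1 (0.14), Gata1 (0.18), Epor (0.29), Slc4a1 (0.24), Ank1 (0.28), Rhd (0.30), Itga2b (0.37) and Gp9 (0.18) above 0 on high fibre, and 1 surrogate variable turned Rhag to -0.062. The cause was not tested. Depth limits Hba-a1, Hbb-bs, Hbb-bt, Rhag and Gp6, each at or under 36 reads over the 12 spleen libraries.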

Other observations

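Other genes of the same pathways were called in both directions in spleen against heart on the control diet, by edgeR at an adjusted p of 0.05. Of 10 partner transcription factors 6 were higher in spleen and 3 lower, with a median log2 fold change of 1.02, against -0.19 over all windows. Runx1 (1.76 ± 0.16), a core factor of blood stem cells, and Gata2 (1.64 ± 0.15), the progenitor GATA factor, were higher, and Fli1, which drives megakaryocyte genes, stood at 2.11 ± 0.21. Lmo2, which bridges TAL1 and GATA1, was lower at -1.61 ± 0.17.

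Of 9 heme synthesis genes 2 were higher and 3 lower, among them the enzyme Urod (-1.68 ± 0.24). Of 9 iron genes tested 2 were higher and 4 lower, among them Steap3 (-1.86 ± 0.17), which reduces iron taken up through the transferrin receptor, and Fth1 (-1.31 ± 0.19), a ferritin chain. Of 6 other red cell membrane genes tested 2 were higher and 3 lower, with Gypc at -1.40 ± 0.16 and Xk, the partner of the Kell protein, at -2.08 ± 0.37. The other globins had 1 higher, embryonic Hba-x (1.33 ± 0.19), and 2 lower of 6.

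Of 23 other platelet genes 10 were higher and 6 lower, with Plek (-3.05 ± 0.23) and Tubb1, the platelet tubulin (-2.29 ± 0.20), at the lower end and Thbs1 (1.66 ± 0.18) at the upper end. In heart, high fibre against control, 5 of the 23 were lower and none higher. Of the heme genes 3 were lower, of the iron genes 1 was higher, Slc40a1 (0.65 ± 0.13), and 2 lower. These lists were chosen with earlier results of the data known, and their counts are given beside 26.2% of all windows called in that comparison and 72.7% in the tissue comparison.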
